A study of Mus musculus with 24 samples.

Results

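The 31 genes described here carry out or control cholesterol synthesis, uptake and efflux in the mouse kidney. They were listed by role, with 18 enzymes of the synthesis pathway and 5 genes grouped under control of the transcription factor SREBP2. These 5 were Srebf2 itself, Scap, Insig1, Insig2 and Stard4, a sterol carrier that SREBP2 regulates. The other roles were 5 genes of the efflux programme of the liver X receptors (LXR) and 3 genes of lysosomal export and storage. Each gene was found by the transcript accession of its probes, and a gene with several probes was read from the brightest of them. A probe was found for 30 of the 31 genes, out of 22911 gene symbols with a probe, and all 30 were well above background on all 24 arrays and were tested among 17736 genes. No probe was matched to Acat2, the cytosolic thiolase at the entry of the pathway, so 17 of the 18 enzymes were measured.

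Total RNA of renal tissue from male Crl:CD1(ICR) mice, an outbred stock, was hybridised to single-colour arrays, 1 array per mouse, in 3 groups. DKD+enarodustat mice (n = 9) received 90 mg/kg alloxan intravenously 3 days before they were put into groups and then ate feed containing enarodustat at 0.01%. DKD mice (n = 9), named for diabetic kidney disease, received the same alloxan and normal feed, and sham mice (n = 6) received vehicle and normal feed. Alloxan kills the insulin-producing cells of the pancreas, which makes this a model of insulin deficiency. Enarodustat is an inhibitor of HIF prolyl hydroxylases, the oxygen-dependent enzymes through which hypoxia-inducible factor (HIF) is degraded. Kidneys were taken at day 16 after grouping, the 2 diabetic groups had been matched for blood glucose and body weight, and no age of the mice was stated in the labels.

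A level is a probe's log2 signal after its array's 75th percentile was subtracted, so 0 is a signal at that percentile. A change is a difference of group means on that log2 scale ± SE, with an adjusted p from limma over all genes tested and a threshold of 0.05. That percentile was a signal of 187 to 388 per array, with 37716 to 44732 spots detected well above background, and arrays of 1 group correlated at 0.964 to 0.991 across genes. The number of arrays limits the precision. All 6 markers of the proximal tubule fixed for the check of the tissue were well above background in every group. Slc16a3, a lactate exporter induced by HIF, was 8.19-fold higher in DKD+enarodustat than in DKD kidneys (limma adjusted p = 4.27e-11), and Egln3, a HIF prolyl hydroxylase, 2.78-fold higher (adjusted p = 0.000244). Each of the 3 slides held arrays of all groups. Position on the slide was uneven: all DKD+enarodustat arrays were in row 2, DKD arrays in both rows (3 in row 2, 6 in row 1) and all sham arrays in row 1.

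Cholesterol is built from acetyl-CoA through mevalonate, the isoprenoid diphosphates, squalene and lanosterol. The rate of the pathway follows SREBP2, a membrane-bound transcription factor that SCAP escorts from the endoplasmic reticulum to the Golgi for cleavage when sterols are scarce, and that INSIG proteins hold back when sterols are plentiful. Cleaved SREBP2 acts at sterol regulatory elements together with the CCAAT-binding factor NF-Y, and raises most genes of the pathway in concert, with Insig1 among its targets. LXR proteins sense oxysterols and raise the exporters Abca1 and Abcg1 and the ubiquitin ligase Mylip, which removes lipoprotein receptors. In the kidney, tubule cells both make cholesterol and reabsorb it from filtered carrier proteins.

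The promoters of 4 enzymes that stood lower in DKD kidneys and of the paralogues Insig1 and Insig2 are shown because all 6 hold the box through which NF-Y is known to act, and those of Hmgcs1 and Insig1 also hold the core of a sterol regulatory element, where SREBP2 is known to act. The sequences are the 250 bases before the annotated start, from RefSeq on GRCm38.p6, read 5′ to 3′ on the strand of the gene: chr13:8885356-8885605 (+ strand) for Idi1, chr8:122443423-122443672 (- strand) for Mvd, chr13:119690101-119690350 (+ strand) for Hmgcs1, chr8:64733579-64733828 (- strand) for Msmo1, chr5:28071162-28071411 (+ strand) for Insig1 and chr1:121332590-121332839 (- strand) for Insig2. Capitals mark CCAAT, the NF-Y box, and CACNCCAC, the core of a sterol regulatory element, in either orientation. Insig2 has 3 annotated starts, and the first listed is shown, the only 1 of its 3 windows with an NF-Y box. Which start is used in the kidney was not measured.
Idi1: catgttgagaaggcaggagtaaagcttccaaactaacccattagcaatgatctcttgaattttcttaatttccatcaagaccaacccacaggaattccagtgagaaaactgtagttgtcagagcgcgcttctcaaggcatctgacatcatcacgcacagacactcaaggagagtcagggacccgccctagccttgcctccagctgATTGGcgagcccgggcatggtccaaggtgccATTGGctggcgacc
Mvd: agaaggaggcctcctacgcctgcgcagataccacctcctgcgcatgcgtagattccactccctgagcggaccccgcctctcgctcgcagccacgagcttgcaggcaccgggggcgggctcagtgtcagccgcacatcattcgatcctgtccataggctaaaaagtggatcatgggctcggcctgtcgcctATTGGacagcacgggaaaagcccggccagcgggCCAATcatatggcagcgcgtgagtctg
Hmgcs1: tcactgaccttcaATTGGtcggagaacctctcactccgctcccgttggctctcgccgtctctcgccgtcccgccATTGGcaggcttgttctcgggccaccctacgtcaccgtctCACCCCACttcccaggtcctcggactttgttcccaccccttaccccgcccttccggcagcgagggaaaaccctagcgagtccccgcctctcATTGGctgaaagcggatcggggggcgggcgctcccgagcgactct
Msmo1: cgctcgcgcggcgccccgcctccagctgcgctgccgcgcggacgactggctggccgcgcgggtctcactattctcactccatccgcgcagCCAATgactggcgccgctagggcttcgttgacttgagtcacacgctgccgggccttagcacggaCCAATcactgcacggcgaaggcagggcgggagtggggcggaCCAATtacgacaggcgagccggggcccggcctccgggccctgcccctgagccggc
Insig1: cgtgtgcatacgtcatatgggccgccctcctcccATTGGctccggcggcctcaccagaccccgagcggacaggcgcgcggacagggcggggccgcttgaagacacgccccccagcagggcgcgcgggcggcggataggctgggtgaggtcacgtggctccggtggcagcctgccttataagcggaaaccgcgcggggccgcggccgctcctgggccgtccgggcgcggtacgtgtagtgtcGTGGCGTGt
Insig2: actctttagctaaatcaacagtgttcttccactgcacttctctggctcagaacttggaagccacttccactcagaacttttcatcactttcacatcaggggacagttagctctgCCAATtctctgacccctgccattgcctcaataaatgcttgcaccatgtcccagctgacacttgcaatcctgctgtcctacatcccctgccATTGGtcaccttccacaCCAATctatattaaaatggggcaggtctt

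Promoters were matched for 25 of the 31 genes, in 32 windows. CCAAT on either strand was present in at least 1 window of 14 of 15 synthesis enzymes (93.3%), against 37.5% of the 27025 genes with a promoter. It was present for 3 of 4 genes of SREBP2 control, 1 of 4 LXR-type efflux genes (Mylip) and both matched lysosome and storage genes. Counted by window, the share was 14 of 18 for the enzymes (77.8%) and 33.8% of all 32851 windows. Acat2 was the enzyme without a match. CACNCCAC was found for Hmgcs1, Acat2 and Insig1, against 6.05% of all genes, and for 0 of 4 LXR-type efflux genes. In Insig1 that match spans bases −9 to −2 from the start, and in Hmgcs1 it spans −136 to −129. The palindromic E-box CACGTG was found for 3 of 15 enzymes and 6.86% of all genes. The shorter core of the hypoxia response element, ACGTG, lies inside CACGTG on both strands, and was found for the same number of enzymes and 18.5% of all genes. A match is a string of letters and not a site shown to be bound, and a gene without one may carry variants that the search did not cover.

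**Figure D1:**
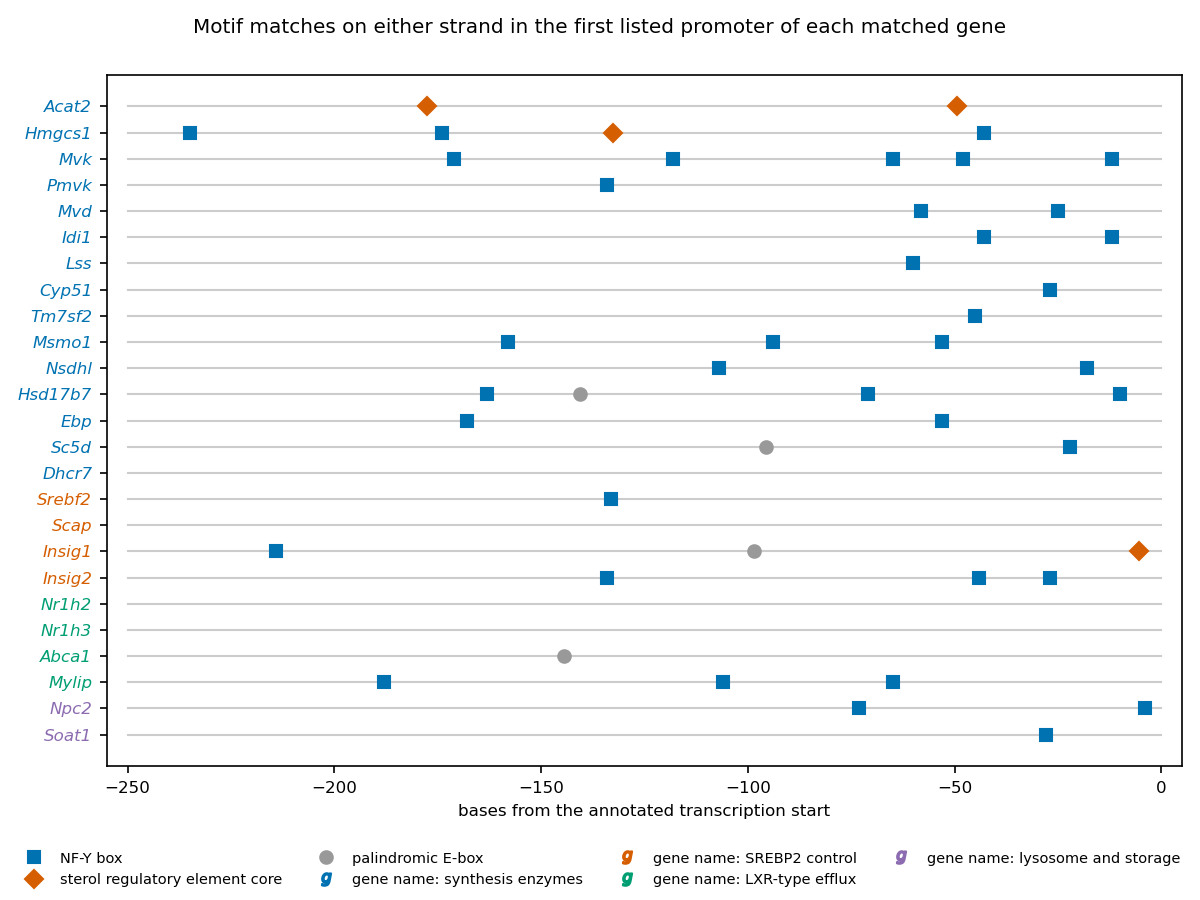
Positions of motif matches on either strand, in bases from the annotated start (horizontal axis), in the first listed promoter of each of the 25 matched genes (vertical axis, names coloured by role). Squares are NF-Y boxes, diamonds sterol regulatory element cores and circles palindromic E-boxes. NF-Y boxes occur in most rows of synthesis enzymes, and 5 of them lie in the row of Mvk.

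Diabetes without the drug was set against the sham state first. In DKD kidneys 9 of the 30 measured genes were lower than in sham kidneys, 0 were higher and 21 did not pass the test, where 11.6% of all genes passed in either direction, 5.47% higher and 6.13% lower. Of all genes called, 47.2% were higher, and 29.0% were higher when arrays were scaled by their median, a scale on which 7 members were lower. The genes that fell were 7 of 17 synthesis enzymes, 1 of 5 genes of SREBP2 control (Insig1), 1 of 5 LXR-type efflux genes (Nr1h3) and 0 of 3 lysosome and storage genes. The median change was −0.37 over the synthesis enzymes, −0.16 over SREBP2 control, −0.18 over LXR-type efflux and −0.20 over lysosome and storage, and −0.012 over all genes tested. At an unadjusted p under 0.05 the count was 13 of 30, against 24.8% of all genes. The count was 5 without the array of sham replicate 2, and lay between 5 and 10 when each of the 24 arrays was left out in turn. Renal tissue of many cell types was measured, so fewer cells of a type and less RNA per cell cannot be told apart.

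Idi1, the isomerase that supplies dimethylallyl diphosphate for isoprenoid chains, had the largest change of the 30 genes. Its lowest, median and highest levels were 1.45, 2.33 and 2.78 in DKD+enarodustat kidneys, 1.02, 1.88 and 2.50 in DKD kidneys and 3.29, 3.35 and 3.45 in sham kidneys. The 6 sham arrays lay within a narrow band of each other, and both diabetic groups lay below all of them and spread over more than 1 log2 unit. Idi1 stood at 37.5% of its sham level in DKD kidneys, a change of −1.42 ± 0.22 (limma adjusted p = 0.000179). It passed in all 24 fits that left out 1 array.

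Of the 4 measured mevalonate steps before Idi1, the synthase and the decarboxylase were lower and the kinases did not pass. Mvd, the decarboxylase that makes isopentenyl diphosphate, had lowest, median and highest levels of 1.12, 1.52 and 1.94 in DKD+enarodustat kidneys, 0.88, 1.59 and 1.90 in DKD kidneys and 1.96, 2.06 and 2.45 in sham kidneys. All 9 DKD arrays lay below all 6 sham arrays, and the change was −0.58 ± 0.14 (limma adjusted p = 0.0106). Hmgcs1, the HMG-CoA synthase of the cytosol, had levels of 5.36, 5.62 and 5.97 in DKD+enarodustat kidneys, 5.36, 5.86 and 6.18 in DKD kidneys and 5.95, 6.19 and 6.50 in sham kidneys. The DKD and sham ranges overlapped, and the change was −0.45 ± 0.13 (limma adjusted p = 0.0314). The limma call was lost without any 1 of DKD replicates 2, 7 and 9 and sham replicates 2, 3 and 4 (adjusted p from 0.0523 to 0.0935), and it held under 9 of 14 other settings, with an adjusted p of 0.166 under quantile normalization and 0.177 at the highest. For the kinases the limma difference was −0.41 ± 0.16 for Mvk (adjusted p = 0.0977) and −0.27 ± 0.14 for Pmvk (adjusted p = 0.240). For Mvk and Pmvk both probes pointed the same way as the value given.

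After isopentenyl diphosphate the pathway builds farnesyl diphosphate, squalene and lanosterol, and none of these 4 enzymes passed in DKD against sham kidneys. Fdps, the farnesyl diphosphate synthase, had a difference of −0.37 ± 0.13 (limma adjusted p = 0.0687), with a 95% interval of −0.64 to −0.10. The difference was 0.10 ± 0.16 for Fdft1, the squalene synthase, 0.030 ± 0.21 for Sqle, the squalene epoxidase, and −0.10 ± 0.067 for Lss, the lanosterol synthase. Their 95% intervals were −0.22 to 0.43, −0.40 to 0.46 and −0.24 to 0.037, in that order of genes. Sqle is a slow step of the pathway, and its levels were 2.43, 2.84 and 3.47 in DKD+enarodustat kidneys, 1.87, 3.20 and 3.49 in DKD kidneys and 2.75, 3.02 and 3.22 in sham kidneys. The DKD range of Sqle held the whole sham range.

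Of the 8 measured enzymes that turn lanosterol into cholesterol, 4 were lower in DKD kidneys. Cyp51, the lanosterol demethylase, had levels of 3.34, 3.68 and 4.21 in DKD+enarodustat kidneys, 2.89, 3.36 and 4.06 in DKD kidneys and 3.74, 4.05 and 4.34 in sham kidneys, and changed by −0.65 ± 0.17 (limma adjusted p = 0.0148). Msmo1, the methylsterol oxidase that follows it, had levels of 1.83, 2.30 and 2.72 in DKD+enarodustat kidneys, 1.81, 2.12 and 2.64 in DKD kidneys and 2.68, 2.83 and 2.90 in sham kidneys. No DKD array of Msmo1 reached the lowest sham array, and the change was −0.58 ± 0.16 (limma adjusted p = 0.0190). Nsdhl, the sterol dehydrogenase of the same demethylation complex, changed by −0.41 ± 0.12 (limma adjusted p = 0.0252), a call lost without sham replicate 2 or 5 (adjusted p of 0.0571 to 0.0661). Sc5d, the desaturase late in the pathway, changed by −0.37 ± 0.12 (limma adjusted p = 0.0355), and 10 of the 24 fits that left out 1 array lost this call, those without DKD replicate 2, 3, 5, 7 or 8 or sham replicate 1, 2, 3, 4 or 5 (adjusted p from 0.0505 to 0.0952). The levels of Nsdhl were 1.101, 1.39 and 1.67 in DKD+enarodustat kidneys, 0.79, 1.35 and 1.75 in DKD kidneys and 1.66, 1.70 and 1.89 in sham kidneys. Those of Sc5d were −0.81, −0.45 and 0.015 in DKD+enarodustat kidneys, −0.73, −0.45 and −0.099 in DKD kidneys and −0.14, −0.011 and 0.18 in sham kidneys. The DKD and sham groups of Nsdhl, Cyp51 and Sc5d overlapped, and 9, 9 and 8 DKD arrays of Cyp51, Sc5d and Nsdhl lay below the sham mean.

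The other 4 late enzymes did not pass. The difference was −0.14 ± 0.096 for Hsd17b7, the ketosteroid reductase of the demethylation complex, −0.21 ± 0.17 for Ebp, the sterol isomerase, and 0.042 ± 0.14 for Tm7sf2, a sterol reductase. The probes of Tm7sf2 differed in sign, the other one standing at −0.041. Dhcr7, the last reductase of the pathway, had the widest error, with a difference of −0.50 ± 0.33 and a 95% interval of −1.19 to 0.18. Its sham arrays alone ran from −0.83 to 0.52. No difference of Dhcr7 was detectable with this spread.

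**Figure D2:**
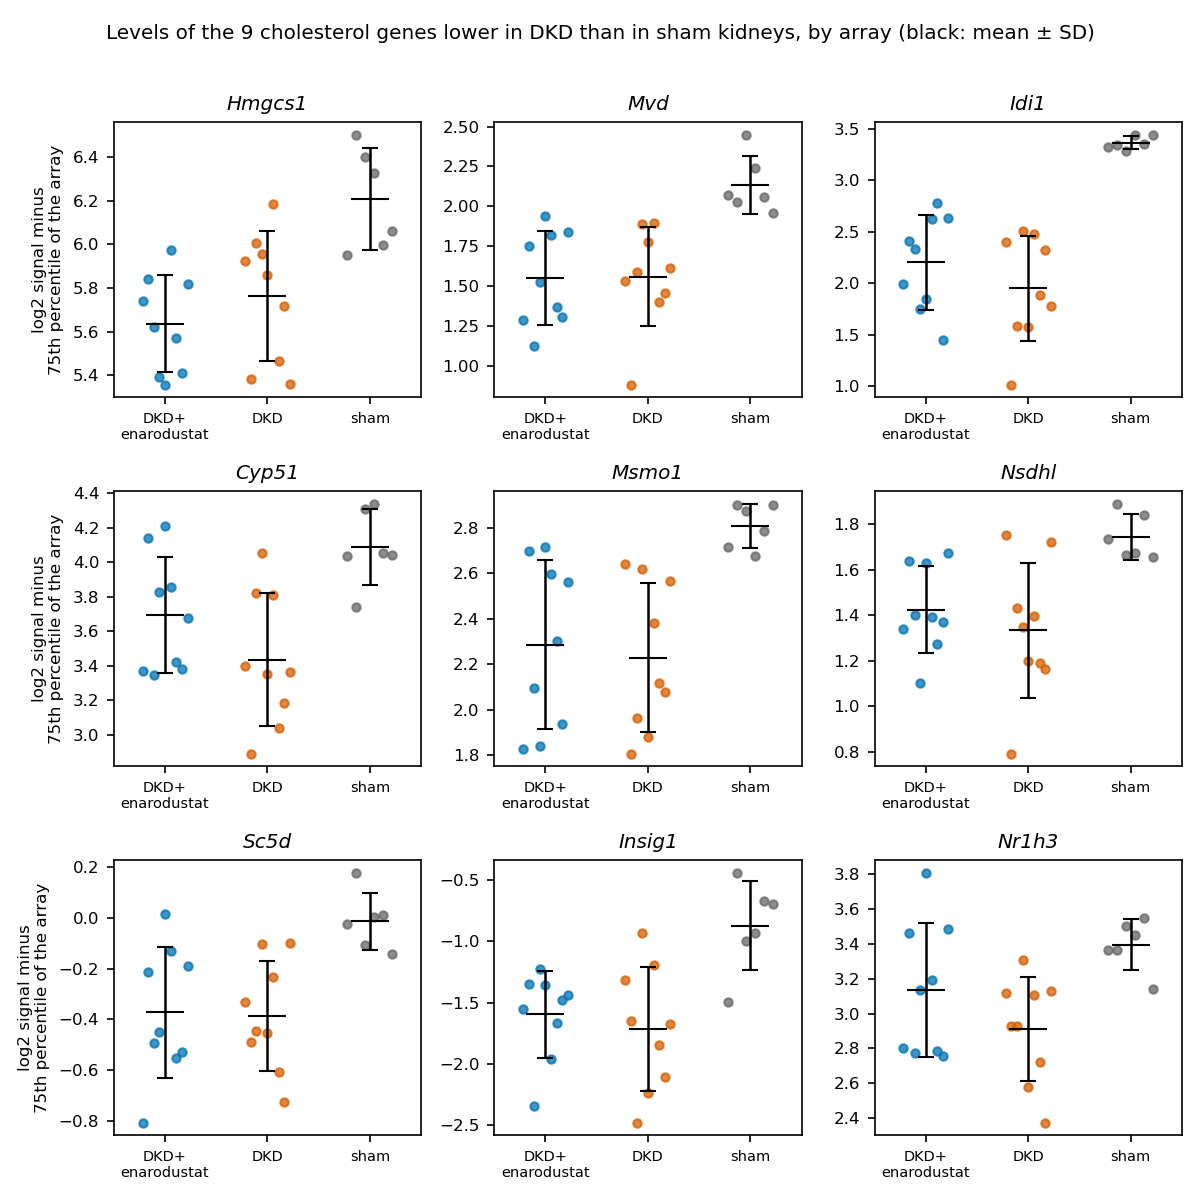
Levels (vertical axis, log2 signal relative to the array's 75th percentile) of the 9 genes lower in DKD than in sham kidneys. Points are arrays of DKD+enarodustat (n = 9), DKD (n = 9) and sham kidneys (n = 6), and black bars are the mean ± SD. For Idi1, Mvd and Msmo1 every DKD array lies below every sham array, and for the other 6 genes the groups overlap.

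Of the 30 genes, Idi1, Mvd and Msmo1 had every DKD array below every sham array, as did 1.92% of all genes. In 1.48% of all genes every DKD array lay above every sham array, so 3.4% did not overlap in either direction. Among the genes of SREBP2 control only Insig1 passed, and it is itself a target of SREBP2. Its lowest, median and highest levels were −2.34, −1.48 and −1.22 in DKD+enarodustat kidneys, −2.48, −1.67 and −0.93 in DKD kidneys and −1.50, −0.82 and −0.44 in sham kidneys. It changed by −0.84 ± 0.21 (limma adjusted p = 0.0113), to 55.8% of the sham level, and all 9 DKD arrays lay below the sham mean. Insig2, the paralogue that also retains SCAP, had a difference of 0.022 ± 0.071 with a 95% interval of −0.12 to 0.17. Its other probes had differences of −0.037 and −0.12. The difference between the changes of Insig1 and Insig2 was −0.86 (exact permutation p = 0.00519, 0.0234 after adjustment over 9 such tests, two-sided). The pairs of paralogues were chosen after the values were seen.

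Srebf2, which encodes SREBP2, had a difference of −0.12 ± 0.11 and Scap, its escort, one of −0.16 ± 0.14, with 95% intervals of −0.36 to 0.11 and −0.45 to 0.13. Stard4, a sterol transfer protein and SREBP2 target, had a difference of −0.27 ± 0.093 (limma adjusted p = 0.0668). It did not pass, and all 9 DKD arrays were below the sham mean. Transcript level says nothing of the cleavage of SREBP2, which was not measured here.

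Among the LXR-type genes, Nr1h3, which encodes LXR alpha, was lower in DKD kidneys. Its lowest, median and highest levels were 2.76, 3.14 and 3.81 in DKD+enarodustat kidneys, 2.37, 2.93 and 3.31 in DKD kidneys and 3.14, 3.41 and 3.55 in sham kidneys, and it changed by −0.49 ± 0.16 (limma adjusted p = 0.04998). This call stood at the threshold: 14 of the 24 fits that left out 1 array lost it (adjusted p from 0.0507 to 0.105). Those left out DKD+enarodustat replicate 1, 2, 4 or 6, DKD replicate 2, 3, 5, 7 or 8, or sham replicate 1, 2, 3, 4 or 5. Nr1h2, which encodes LXR beta, had a difference of −0.18 ± 0.068 (adjusted p = 0.0834), and the change of Nr1h3 differed from it by −0.30 (exact permutation p = 0.018, 0.0539 after adjustment over the 9 tests).

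The efflux targets of LXR did not pass in DKD against sham kidneys. Abca1, which loads cholesterol on apolipoprotein A-I, had levels of −1.80, −0.38 and −0.22 in DKD+enarodustat kidneys, −1.75, −0.82 and 0.051 in DKD kidneys and −0.97, −0.57 and −0.33 in sham kidneys. Its DKD range was wide and held all 6 sham arrays, with a difference of −0.28 ± 0.25 and a 95% interval of −0.80 to 0.24. Abcg1, which exports cholesterol to lipoprotein particles, had a difference of 0.060 ± 0.15 and Mylip one of 0.19 ± 0.17. Of the lysosome and storage genes, Npc1 and Npc2, which together move cholesterol out of the lysosome, had differences of 0.15 ± 0.11 and −0.20 ± 0.16. Soat1, the acyltransferase that stores cholesterol as ester, had a difference of −0.33 ± 0.20, and its 4 probes gave −0.36 to −0.27.

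The DKD changes of the 9 genes kept their sign within each slide. Within slides 1, 2 and 3 the difference was −1.66, −1.18 and −1.41 for Idi1, −0.72, −0.49 and −0.52 for Mvd, −0.85, −0.49 and −1.19 for Insig1, and −0.38, −0.48 and −0.60 for Nr1h3. No member passed within 1 slide, where 3 DKD arrays met 2 sham arrays and 0 to 15 of all genes passed. In row 1 of the slides, which held 6 DKD and 6 sham arrays, 9 members were lower, against 5.91% of all genes, and the median of the synthesis enzymes was −0.44. This split by row was chosen after the data were seen.

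**Figure D3:**
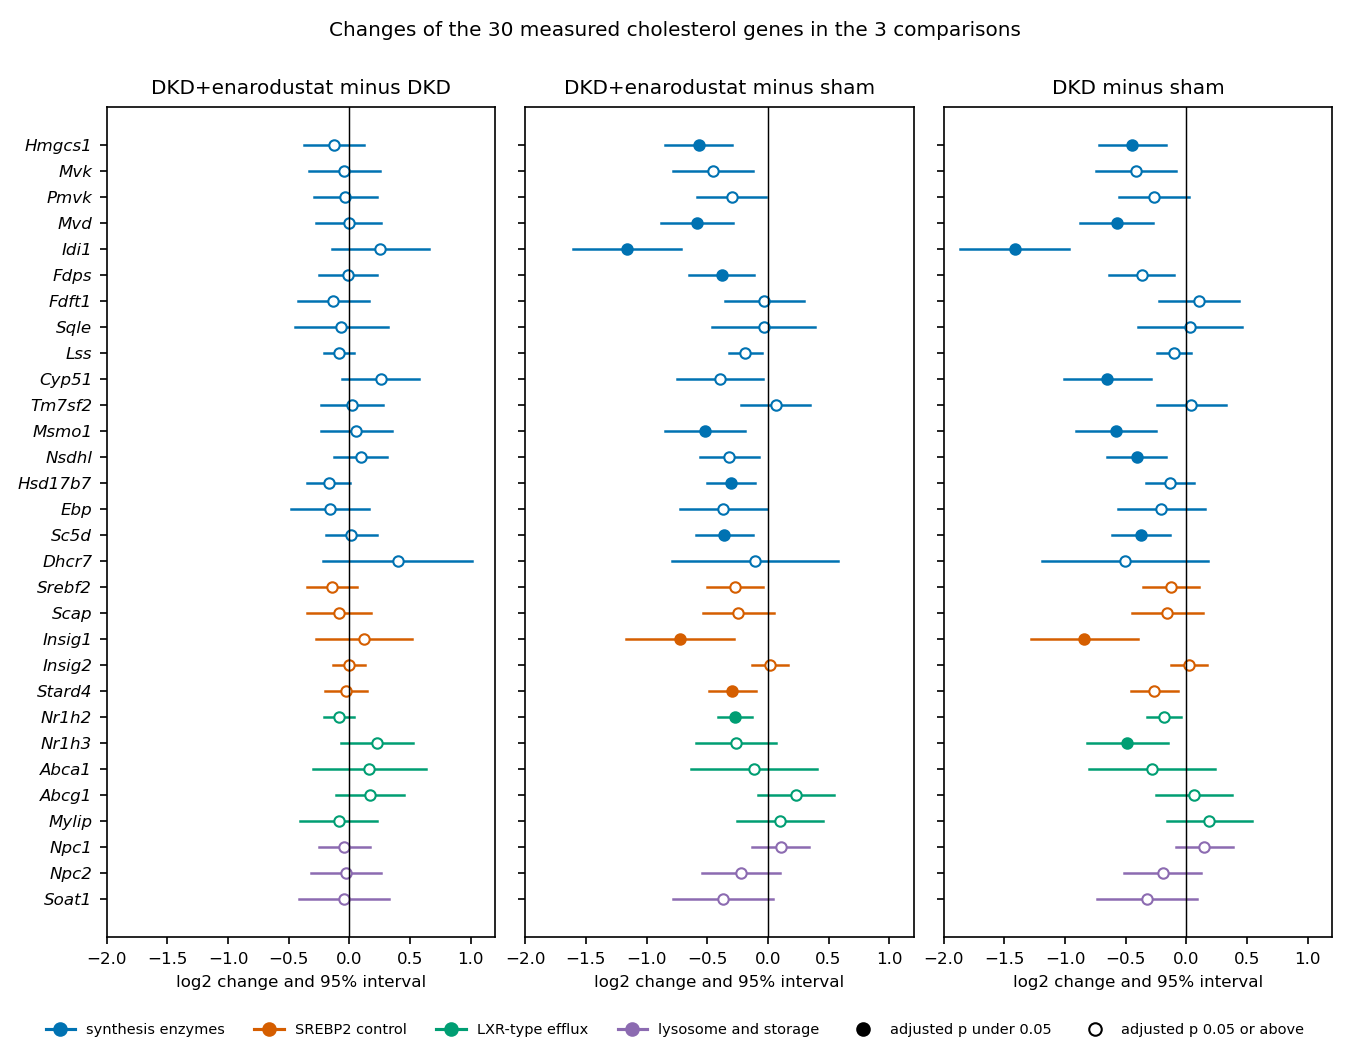
Changes (horizontal axis, log2) with 95% intervals of the 30 measured genes (vertical axis, ordered and coloured by role) in the 3 comparisons. Filled points passed the threshold. In the panel of DKD+enarodustat minus DKD 0 of 30 points are filled, and in the other panels the filled points all lie left of 0, furthest for Idi1.

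DKD+enarodustat was then set against DKD, which asks what the drug changed once mice were diabetic. Of the 30 genes 0 were higher, 0 were lower and 30 did not pass by limma, where 0.716% of all genes passed in either direction. At an unadjusted p under 0.05 the count was also 0 of 30, against 10.9% of all genes. The median change was −0.011 over the synthesis enzymes, −0.027 over SREBP2 control, 0.16 over LXR-type efflux and −0.042 over lysosome and storage, and 0.0048 over all genes. Within slides 1, 2 and 3 the median of the LXR-type genes was 0.11, −0.062 and 0.27.

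The 95% intervals give the range of drug effects these arrays allow. Idi1 differed by 0.25 ± 0.19 between DKD+enarodustat and DKD kidneys (limma adjusted p = 0.730), with a 95% interval of −0.15 to 0.65. Mvd differed by −0.0075 ± 0.13 with an interval of −0.28 to 0.26, Insig1 by 0.12 ± 0.19 with an interval of −0.28 to 0.51, and Cyp51 by 0.26 ± 0.15 with an interval of −0.062 to 0.57. The changes of these 4 genes in DKD against sham kidneys were −1.42, −0.58, −0.84 and −0.65, in that order, each larger in size than the upper bound. These changes had 95% intervals of −1.86 to −0.97, −0.88 to −0.28, −1.28 to −0.40 and −1.01 to −0.30, and both comparisons share the DKD arrays. For Nr1h3 the DKD change of −0.49 was smaller in size than the upper bound of 0.52. Whether the drug returned a gene to its sham level was not tested by these bounds. The second probe of Cyp51 differed by 0.046 between DKD+enarodustat and DKD kidneys. The smallest unadjusted p among the 30 was that of Hsd17b7, with a difference of −0.17 ± 0.086 (limma adjusted p = 0.479). The largest difference was that of Dhcr7, at 0.40 ± 0.30 with an interval of −0.21 to 1.01.

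The LXR-type genes Nr1h3, Abca1 and Abcg1 differed by 0.22 ± 0.14, 0.16 ± 0.22 and 0.17 ± 0.14 between DKD+enarodustat and DKD kidneys, and Nr1h2 and Mylip by −0.089 ± 0.061 and −0.090 ± 0.15. None passed, and for all 5 the groups overlapped. The difference between the changes of Nr1h3 and Nr1h2 was 0.31 (exact permutation p = 0.0306, 0.069 after adjustment over the 9 tests), which did not pass. In row 2 of the slides, which held 9 DKD+enarodustat and 3 DKD arrays, 0 members passed and the median of the synthesis enzymes was −0.13.

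DKD+enarodustat kidneys were also set against sham kidneys, which shows where diabetes with the drug left each gene. This comparison shares its sham arrays with that of DKD against sham, so the lists are not independent. Of the 30 genes 0 were higher, 10 were lower and 20 did not pass, where 15.5% of all genes passed in either direction, 8.74% higher and 6.75% lower. Of all genes called, 56.4% were higher, and 29.9% were higher with arrays scaled by their median, a scale on which 12 members were lower. Lower were 7 of 17 synthesis enzymes, 2 of 5 genes of SREBP2 control and 1 of 5 LXR-type efflux genes, with medians of −0.36, −0.27 and −0.12. The median was −0.22 over lysosome and storage, where 0 of 3 passed, and −0.016 over all genes. The unadjusted count at p under 0.05 was 17 of 30, against 29.7% of all genes.

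Idi1 changed by −1.16 ± 0.22 (limma adjusted p = 0.000844), to 44.7% of its sham level, and Mvd by −0.58 ± 0.14 (adjusted p = 0.00796). For both, all 9 DKD+enarodustat arrays lay below all 6 sham arrays, as in 2.03% of all genes. Another 2.91% had every DKD+enarodustat array above every sham array, so 4.94% did not overlap in either direction. Hmgcs1 changed by −0.57 ± 0.13 (limma adjusted p = 0.00556) and Insig1 by −0.72 ± 0.21 (adjusted p = 0.0235), each with all 9 arrays below the sham mean. Msmo1, Fdps, Hsd17b7 and Sc5d changed by −0.52, −0.38, −0.31 and −0.36, with limma adjusted p from 0.0282 to 0.0496. When each of the 24 arrays was left out in turn, the call was lost in 6 fits for Msmo1, 16 for Fdps, 7 for Hsd17b7 and 10 for Sc5d (adjusted p up to 0.119). Stard4 changed by −0.29 ± 0.093 (limma adjusted p = 0.0347), and Nr1h2 by −0.27 ± 0.068 (adjusted p = 0.00822). The call of Stard4 was lost in 7 of the 24 fits and held under 7 of 14 other settings, that of Insig1 was lost without sham replicate 2 or 5, and those of Idi1, Mvd, Hmgcs1 and Nr1h2 held in all 24. The DKD+enarodustat and sham ranges of Msmo1, Fdps, Hsd17b7, Sc5d, Stard4 and Nr1h2 overlapped. Cyp51, Nsdhl and Nr1h3 did not pass here, with differences of −0.40, −0.32 and −0.26 against sham. The second probe of Cyp51 stood at −0.58. With the mean of its probes Cyp51 passed, at −0.49 (limma adjusted p = 0.0345), the only 1 of 14 other settings in which it did. Insig2 had a difference of 0.016 ± 0.071, and the change of Insig1 differed from it by −0.74 (exact permutation p = 0.000599, 0.00539 after adjustment over the 9 tests). The other probes of Insig2 had the opposite sign, at −0.109 and −0.114.

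Fdps, Hsd17b7, Stard4 and Nr1h2 had not passed in DKD against sham kidneys. Fdps had lowest, median and highest levels of 1.46, 1.62 and 2.11 in DKD+enarodustat kidneys, 1.30, 1.69 and 2.09 in DKD kidneys and 1.77, 2.06 and 2.30 in sham kidneys. Hsd17b7 had levels of 2.08, 2.31 and 2.59 in DKD+enarodustat kidneys, 2.24, 2.45 and 2.89 in DKD kidneys and 2.42, 2.69 and 2.80 in sham kidneys. The DKD+enarodustat arrays of Hsd17b7 all lay below the sham mean, and 8 of 9 did for Fdps. Stard4 had levels of 0.64, 0.98 and 1.16 in DKD+enarodustat kidneys, 0.79, 1.00 and 1.21 in DKD kidneys and 0.84, 1.31 and 1.48 in sham kidneys. Nr1h2 had levels of 3.23, 3.44 and 3.58 in DKD+enarodustat kidneys, 3.36, 3.53 and 3.61 in DKD kidneys and 3.52, 3.69 and 3.88 in sham kidneys, a narrow range in every group. All 9 DKD+enarodustat arrays of Stard4 and Nr1h2 lay below the sham mean.

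The row on the slide could not be told apart from the group here by a comparison within a row, since row 1 held no DKD+enarodustat array and row 2 no sham array. With the row as a term, which the DKD arrays in both rows allow, 0 members passed by limma and the median of the synthesis enzymes was −0.58. Calls over all genes also fell with this term, to 5.01% from 15.5% in either direction and to 1.98% from 6.75% lower. The loss of calls was thus not particular to the members. In that fit the difference was −1.16 for Idi1 (limma adjusted p = 0.0667) and −0.79 for Mvd (adjusted p = 0.0571). Over single arrays left out the count ran from 4 to 12. It was 4 without sham replicate 2, 5 without DKD+enarodustat replicate 1 or sham replicate 3, and 6 without DKD+enarodustat replicate 7 or 8 or sham replicate 5.

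The synthesis enzymes varied more between arrays of diabetic mice than between arrays of sham mice, as most genes did. The mean difference of the 17 enzymes from the sham mean ran from −0.60 to −0.051 over the 9 DKD+enarodustat arrays, with an SD of 0.22, and from −0.67 to −0.15 over the 9 DKD arrays, with an SD of 0.20. It ran from −0.085 to 0.052 over the 6 sham arrays, with an SD of 0.058. In each diabetic group 15 of 17 enzymes had a larger SD than in sham, where 71.2% of all genes did so in DKD+enarodustat and 77.5% in DKD. The median SD of single enzymes was 0.30 in DKD+enarodustat, 0.31 in DKD and 0.18 in sham kidneys, and that of all genes was 0.28, 0.31 and 0.20.

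Some arrays stood at one end for many enzymes at once. In DKD+enarodustat kidneys replicates 2, 5 and 9 had enzyme means between −0.11 and −0.051, and the other 6 lay between −0.60 and −0.38. In DKD kidneys replicate 2 was lowest, at −0.67, and was the lowest of its group for 8 of the 17 enzymes. Replicate 5 of DKD+enarodustat was the highest of its group for 9 of 17. Its array was the dimmest of all, with a 75th percentile signal of 187, where that of DKD replicate 2 was 229. Replicate 3 of DKD+enarodustat was the lowest of its group for 5 of 17, and was the only array that the extraction software marked for evaluation. With 1 array per mouse, a trait of the mouse and one of its array cannot be told apart. The means of SREBP2 control ran from −0.43 to −0.13 in DKD+enarodustat, from −0.39 to −0.060 in DKD and from −0.20 to 0.15 in sham kidneys. Those of LXR-type efflux ran from −0.39 to 0.18, from −0.33 to 0.23 and from −0.10 to 0.078 in the same groups.

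**Figure D4:**
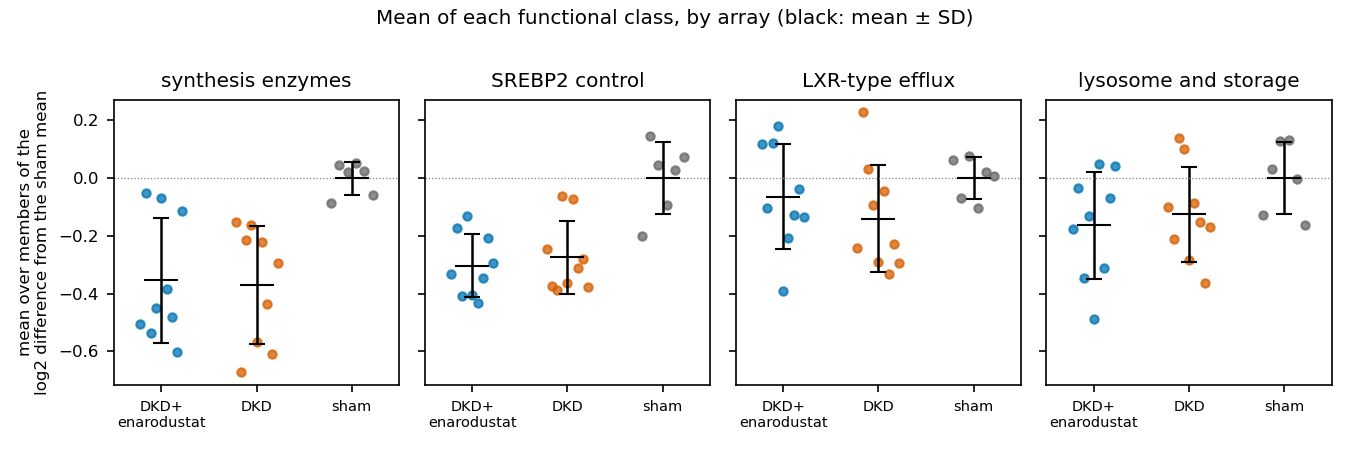
Mean over the measured genes of each role of the difference from the sham mean (vertical axis, log2), by array. Points are DKD+enarodustat (n = 9), DKD (n = 9) and sham arrays (n = 6), and bars are the mean ± SD. For the synthesis enzymes the diabetic arrays spread from −0.67 to −0.051, and the sham arrays lie within 0.085 of 0.

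Deviations of arrays from their own group means show which genes varied together, as a description over 24 arrays with no p. Over 136 pairs of synthesis enzymes the median Pearson correlation was 0.34, with 35 pairs above 0.5 and 9 below 0. Msmo1, Nsdhl and Cyp51 tracked the mean of the other enzymes most closely (0.75, 0.73 and 0.71), and Idi1 least (0.31). The gene with the largest change was also the one whose array-to-array deviations followed the other enzymes least.

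The enzyme mean moved with Nr1h3 at r = 0.85 (Spearman 0.86), with Abca1 at −0.70 (Spearman −0.71) and with Abcg1 at −0.59 (Spearman −0.55). Without DKD+enarodustat replicate 2 and DKD replicate 2, the arrays farthest from the median, these values were 0.92, −0.66 and −0.46. Within DKD+enarodustat, DKD and sham arrays r was 0.94, 0.76 and 0.61 for Nr1h3, and −0.86, −0.52 and −0.76 for Abca1. For Abcg1 the values were −0.87, −0.21 and −0.11. On this scale Nr1h3 varied with the enzymes and Abca1 against them in every group, and Abcg1 varied against them mainly among DKD+enarodustat arrays. The relation was not limited to LXR-type genes. Over all 24 arrays r was 0.62 for Npc2, 0.54 for Nr1h2, 0.44 for Insig1, 0.30 for Insig2 and 0.26 for Soat1. It was −0.40 for Npc1, −0.34 for Mylip, −0.22 for Srebf2, −0.071 for Stard4 and 0.011 for Scap.

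The brightness of the array moved with the same axis. The enzyme mean correlated at −0.56 with the log2 of the array's 75th percentile signal and at −0.60 with the number of spots well above background. Of all other genes, 19.8% correlated above 0.5 with the enzyme mean and 7.42% below −0.5. With the brightness taken out of every gene these shares were 7.90% and 2.88%, and r was 0.79 for Nr1h3, −0.58 for Abca1 and −0.61 for Abcg1. After quantile normalization r was 0.67, −0.58 and −0.64. With the array median in place of the 75th percentile r was 0.93 for Nr1h3, −0.29 for Abca1 and −0.043 for Abcg1, and 42.2% of all other genes correlated above 0.5 and 1.89% below −0.5. The relations with Abca1 and Abcg1 depend on the scaling. The mean level of the podocyte markers correlated with the enzyme mean at −0.52, that of endothelium at −0.48 and that of macrophages at −0.014. The mean levels of lymphocyte and thick ascending limb markers correlated with it at 0.42 and 0.29. For endothelium r was −0.72, −0.071 and −0.93 within DKD+enarodustat, DKD and sham arrays. The part of these cell types in the relation was not tested.

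**Figure D5:**
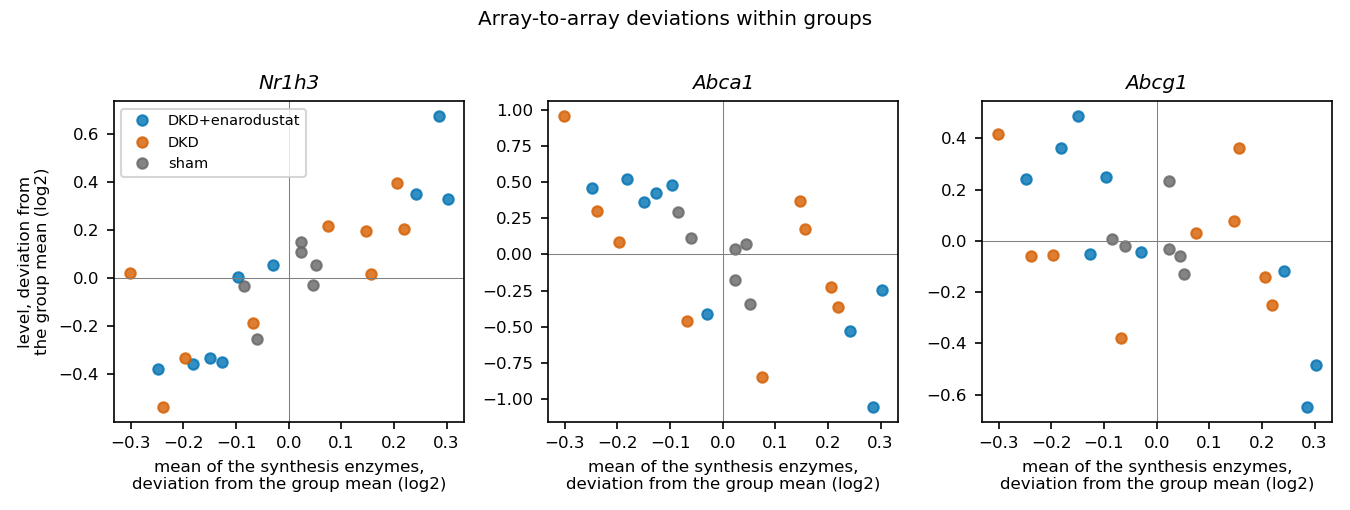
Deviation of Nr1h3, Abca1 and Abcg1 from the group mean (vertical axes, log2) against the deviation of the mean of the 17 synthesis enzymes (horizontal axes, log2). Each point is 1 of 24 arrays, coloured by group. Nr1h3 slopes up (r = 0.85), Abca1 slopes down (r = −0.70), and Abcg1 slopes down most clearly among DKD+enarodustat arrays (r = −0.87).

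The brightness overlapped between the groups. The 75th percentile signal ran from 187 to 388 in DKD+enarodustat, from 221 to 333 in DKD and from 219 to 277 in sham arrays. With it as a covariate, a fit added after the data were seen, 13 members were lower in DKD and 12 in DKD+enarodustat kidneys than in sham kidneys, and 0 passed between the diabetic groups. Calls over all genes were also more frequent in that fit, with 8.95% of genes lower in DKD and 8.87% lower in DKD+enarodustat than in sham kidneys, and 1.57% passing between the diabetic groups.

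Around these genes stands a wider set of 56 sterol genes, of which 55 were tested: prenyl branches, SREBP processing and sterol sensing, uptake and lysosome, sterol transfer, other LXR partners and transporters, and oxysterol metabolism and steroid sulfation. In DKD against sham kidneys 10 of the 55 were lower, 2 were higher and 43 did not pass, with a median change of −0.079, where 6.13% of all genes were lower and 5.47% higher. Among the lower genes were members of the list of SREBP processing and sterol sensing, where 0 were higher. Srebf1, which encodes the SREBP of fatty acid synthesis, changed by −1.14 ± 0.13 (limma adjusted p = 1.35e-05). Rnf145, a sterol-sensing ubiquitin ligase, changed by −0.86 ± 0.10 (limma adjusted p = 2.18e-05).

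Both higher genes belonged to the list of oxysterol metabolism and steroid sulfation. Soat2, the other sterol acyltransferase, changed by 0.92 ± 0.25 (limma adjusted p = 0.0191) and Cyp27a1, a sterol hydroxylase, by 0.50 ± 0.11 (adjusted p = 0.00534). Soat2 averaged −4.18 ± 0.63 in DKD and −5.09 ± 0.30 in sham kidneys (SD), far below the 75th percentile but detected on all arrays. Cyp27a1 was named after its value was seen.

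Between DKD+enarodustat and DKD kidneys 1 of the 55 passed, against 0.716% of all genes. Abcg5, a sterol transporter of liver and gut, averaged −4.96 ± 0.35 in DKD+enarodustat and −5.72 ± 0.36 in DKD kidneys (SD, n = 9 each), a difference of 0.76 ± 0.17 (limma adjusted p = 0.0373). Detection above background was reached by 8 of 9 DKD+enarodustat and 4 of 9 DKD arrays, so the level of Abcg5 in DKD kidneys was measured near the detection limit. Against sham kidneys DKD+enarodustat kidneys had 8 lower, 4 higher and 43 that did not pass, where 6.75% of all genes were lower and 8.74% higher. Srebf1 changed by −1.08 ± 0.13 (limma adjusted p = 1.15e-05) and Rnf145 by −0.74 ± 0.10 (adjusted p = 5.48e-05). The higher genes were Star, Scarb1, Abcc1 and Gramd1a. Star, which moves cholesterol into mitochondria, changed by 0.75 ± 0.24 (limma adjusted p = 0.0356), and Nceh1, a cholesterol ester hydrolase, by −0.63 ± 0.11 (adjusted p = 0.000462).

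Cell type markers were summed on the linear scale of signal over the 75th percentile. The sum of 10 macrophage markers ran from 13.2 to 19.6 in DKD+enarodustat, from 11.1 to 16.4 in DKD and from 18.4 to 25.8 in sham kidneys, and 1 of the 10 was called lower in DKD than in sham. Csf1r was the brightest of the 10 and so weighed most in this sum. Its mean log2 level was 3.36 in DKD+enarodustat, 3.12 in DKD and 4.01 in sham kidneys. Cd14, Lyz2 and Mrc1 had higher means in DKD than in sham kidneys, and the remaining macrophage markers lower means. The sum of 7 lymphocyte markers ran from 1.37 to 2.26, from 1.13 to 2.08 and from 2.20 to 2.73 in the same order of groups, with 3 of 7 lower in DKD. That of 2 thick ascending limb markers ran from 145 to 222, from 138 to 203 and from 203 to 238. These 2 markers moved in opposite directions, with 1 called higher and 1 lower in DKD than in sham. Umod, the brighter one, averaged 7.25 in DKD and 7.74 in sham kidneys (log2), and Slc12a1 averaged 3.90 and 3.49. The sum of 6 proximal tubule markers ran from 470 to 548, from 521 to 626 and from 491 to 580, and these ranges overlapped. The sum of 4 endothelium markers ran from 17.3 to 21.5, from 13.3 to 16.2 and from 14.9 to 18.2, with 2 of 4 higher in DKD+enarodustat than in DKD. That of 4 distal tubule and collecting duct markers ran from 27.6 to 38.5, from 31.1 to 39.5 and from 21.6 to 28.1, with 3 of these 4 higher in DKD than in sham. Over all genes 5.47% were higher and 6.13% lower in DKD than in sham kidneys. Between DKD+enarodustat and DKD kidneys 0.609% of all genes were higher. Of 7 adrenal cortex markers, Cyp11a1 and Cyp11b2 were well above background on 0 of 24 arrays, and Cyp21a1, Hsd3b1 and Star on all 24. Mc2r was so on 6 of 9 DKD+enarodustat, 6 of 9 DKD and 4 of 6 sham arrays, and Cyp11b1 on 1, 0 and 1. In DKD+enarodustat against sham kidneys 1 of the 7 was called higher. Star is thus both an adrenal cortex marker and a gene of the wider sterol set. Whether adrenal tissue was present was not tested. The part of these marker levels in the lower cholesterol genes was not tested.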

How the data were processed

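Per the file headers, the deposited scanner files hold spot intensity values from Agilent Feature Extraction 12.1.1.1, where the processed signal is background-corrected. The submitters' processing notes name Feature Extraction 11.5.1.1 and limma. The authors also deposited log2 values for 31409 probes, which normexp on the median signals and quantile normalization matched within 0.05 for all but 308 of 753816 values. Total RNA was labelled with Cy3, per the labels' protocols.

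Control spots and 20 flagged outlier values were left out, spots of a probe were averaged, and each array's 75th percentile of log2 processed signal was subtracted. Probes were named by accession through RefSeq GRCm38.p6 (32994 of 56605 probes), and the brightest probe was kept per gene. Genes whose probe passed the scanner's detection flag on 6 or more of the 24 arrays were fitted with limma 3.58.1 in R 4.3.3 on all 24 arrays with group as the only term, and p-values were adjusted by Benjamini-Hochberg over 17736 genes, with a threshold of 0.05. Differences between paralogues used two-sided exact permutation tests. The code was tested on simulated data. All measured members were named, with at most 4 related genes of largest change per comparison. Members, lists and tests were chosen with earlier results of these data known. Alternatives covered background correction, scaling, filters, slide, slide row, replicate number, array brightness and leaving out each array. One related gene is not reported here.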

Additional observations from a re-analysis of the deposited data

Results flagged for a closer look

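In 90 sets of levels (30 genes in 3 groups) 4 levels stood apart from the rest of their group by Dixon's criterion, and chance marks about 1 in 20 sets. DKD replicate 2 was the lowest of its group for Mvd, at a level of 0.88, and for Sqle, at 1.87. DKD+enarodustat replicate 5 was the lowest of its group for Scap, at 2.79. Sham replicate 3 was the highest of its group for Abcg1, at 0.028.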

How the results depend on the processing

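In DKD against sham kidneys the count of lower members, 9, was 0 within each of slides 1, 2 and 3 alone, and 3 with the replicate number as a block (replicate block). It ran from 5 without sham replicate 2 to 10 without DKD replicate 1. In DKD+enarodustat against sham kidneys the count, 10, was 0 within each of slides 1, 2 and 3 alone, 0 with the slide row as a term and 5 with the replicate block, and ran from 4 without sham replicate 2 to 12 without DKD+enarodustat replicate 9. There the synthesis median was −0.58 with the row term, and the median of SREBP2 control was −0.41 with the array median as the scale. Between DKD+enarodustat and DKD kidneys the count was 0 in all 24 fits that left out 1 array, and the LXR-type median was −0.062 on slide 2 alone. A slide holds 2 sham and 3 arrays of each diabetic group, so fewer arrays enter those fits; the other causes were not tested. Same-numbered arrays of different groups correlated at a median of 0.097 over 21 pairs, 10 of them over 0.1. Other-numbered arrays of different groups correlated at a median of −0.024 over 168 pairs, 49 of them over 0.1. For arrays of different groups the median was 0.19 on the same slide (63 pairs) and −0.093 on other slides (126 pairs). The numbers ran in slide order within each group, so this check cannot tell pairing by number from a shared slide. Scaling by the array median moved the median of all genes to −0.12 in DKD and −0.16 in DKD+enarodustat against sham kidneys. Between the diabetic groups 85.0% of the genes called were higher, and 70.1% with normexp, 73.9% with quantile normalization and 69.1% in the deposited values. Of all genes, 2058 passed in DKD against sham kidneys, with 1303 under array-median scaling, and 127 passed between the diabetic groups, with 36 under array-median scaling, 47 with those 2 groups alone, 20 with the row term, 11 in row 2 alone, 66 with the replicate block, 83 with no filter on dim probes, 71 without DKD+enarodustat replicate 8 at the lowest, and 279 with brightness as a covariate. In DKD+enarodustat against sham kidneys 2748 passed, and 889 with the row term. Within single slides 0 to 36 of all genes passed. Normexp on mean signals was not run, since a mean signal column was not used here.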
